A study of Mus musculus with 6 samples.

Results

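Superoxide dismutases, catalase and peroxiredoxins are the enzymes that remove superoxide and peroxides from liver cells. They were taken here as the 10 genes Sod1, Sod2, Sod3, Cat and Prdx1 to Prdx6, matched by gene symbol among the 40481 genes of the count table, and all 10 were found. The samples were RNA pools from livers of C57BL/6 mice. The line used had a floxed Mttp gene and a Cre recombinase that tamoxifen activates and the villin promoter drives in the intestinal epithelium. Control mice (3 pools) were littermates that received vehicle, and Mttp-IKO mice (3 pools) received tamoxifen at 50 μg per g of body weight a day for 5 days. Mice of both groups were 12 to 16 weeks old, were started 3 weeks after the injections on a methionine- and choline-deficient (MCD) diet, were fed it for 3 weeks, and were killed after a 4 h fast. Each pool held RNA from 3 to 4 mice. The study's methods describe both groups as mice of this line. Its results call the controls WT littermates, and the control pools are titled WT, so the alleles of the controls are not certain. Tamoxifen itself and the intestinal deletion cannot be told apart in this design. No pool came from mice on ordinary chow, so the values compare the genotypes on the MCD diet only. The deletion is intestinal, and the level of Mttp in liver, 90.4, 186 and 175 CPM (counts per 1000000 reads of the scaled library) in control pools 1, 2 and 3 and 145, 129 and 161 CPM in Mttp-IKO pools 1, 2 and 3, therefore does not check the genotype.

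Superoxide is produced by the respiratory chain, by NADPH oxidases of phagocytes and by other oxidases. Superoxide dismutases convert it to hydrogen peroxide: Sod1 with copper and zinc in the cytosol, Sod2 with manganese in the mitochondrial matrix, and Sod3, a secreted copper and zinc enzyme, on the matrix outside cells. Hydrogen peroxide is then broken down by catalase, which is abundant in hepatocyte peroxisomes, and by peroxiredoxins, which reduce peroxides with a reactive cysteine. Most peroxiredoxins are recycled by thioredoxin, whereas Prdx6 uses glutathione. MCD feeding produces fatty liver with oxidative stress, inflammation and fibrosis, and Mttp is needed to load fat onto the lipoproteins that leave the intestine. The comparison asks whether transcripts of these enzymes differed in livers of mice without intestinal Mttp.

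The promoter sequences of Sod1 and Prdx1 are shown because they alone, among the 8 member promoters in the RefSeq table (GRCm38.p6; Sod3 and Prdx6 were not matched), held the core of the antioxidant response element, TGACNNNGC, the element through which the transcription factor NRF2 acts. Each line gives 120 bases that end just before the first annotated base of the gene, 5′ to 3′ on the plus strand, which is the strand of both genes, with the core in capitals. Both cores lie on the opposite strand, so they are read here as the reverse complement.
Sod1, chr16:90220622-90220741: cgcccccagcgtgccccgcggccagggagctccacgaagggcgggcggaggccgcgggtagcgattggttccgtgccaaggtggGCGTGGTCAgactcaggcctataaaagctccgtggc
Prdx1, chr4:116685424-116685543: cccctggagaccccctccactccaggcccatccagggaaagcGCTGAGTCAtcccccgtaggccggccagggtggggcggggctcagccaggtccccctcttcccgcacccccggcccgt

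The core was searched on both strands in windows of 300 bases, 250 before and 50 after the RefSeq start site, and 12.4% of all 32851 promoters in the table held it. The GC box GGGCGG was in all 8 member promoters and in 35.7% of all promoters, and the CCAAT box was in 4 (Cat, Prdx4, Sod1 and Sod2) against 37.4% of all. The TATA box TATAAA was in 3 (Prdx1, Prdx3 and Sod1) against 13.6% and the E box CACGTG was in 1 (Prdx4) against 7.2%. These matches describe the letters of the windows, and binding was not measured.

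The deposited counts summed to between 25271585 and 36238734 reads per pool. A count of 0 would have allowed up to 0.119 CPM in the shallowest pool, and every member stood far above that in every pool. Mttp-IKO pool 3 stood apart from the other pools: its short transcripts were depleted, and small RNAs took 0.289% of its reads against 1.92 to 3.51% in the other pools. The fold change of each of the 10 genes, and of each related gene given with a test, is therefore also given without this pool. Marker sums also differed between the genotypes. Hepatocyte markers summed to between 53383 and 88844 CPM in the controls and between 106205 and 161136 CPM in Mttp-IKO pools. None of the 6 markers passed the test. Alb made up most of that sum (40131 to 69005 against 84785 to 132236 CPM). Ttr went the other way (2808 to 3828 against 1466 to 2740 CPM), and the other markers were higher on average in Mttp-IKO. Recruited macrophage markers summed to 394 to 1066 CPM in the controls and 146 to 203 CPM in Mttp-IKO pools. All were lower on average, and 5 of 6 were called lower, beside 3.09% of all genes tested. Stellate cell and fibroblast markers summed to 861 to 1529 CPM in the controls and 461 to 516 CPM in Mttp-IKO pools. All were lower on average, and 5 of 8 were called lower. Smooth muscle markers summed to 40.1 to 70.3 against 13.5 to 18.7 CPM, all lower on average, and 3 of 4 were called lower. Of the other lists, only Timd4, 1 of 6 Kupffer cell markers, passed the test (higher in Mttp-IKO). Endothelial (365 to 415 against 365 to 415 CPM), Kupffer cell (319.7 to 489.9 against 244 to 583 CPM), cholangiocyte (29.5 to 45.1 against 21.9 to 40.7 CPM) and erythroid sums (329 to 473 against 237 to 395 CPM) overlapped, and neutrophil and B cell sums stayed under 10 CPM, with Ly6g, Elane and Ms4a1 at 0 in some pools. Striated muscle markers summed to 66.5 and 553 CPM in control pools 1 and 2 and to between 0.461 and 1.03 CPM in the other 4 pools. In liver RNA pools, fewer cells of a type and less RNA per cell cannot be told apart.

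None of the 10 genes passed the threshold of 0.05 in edgeR's quasi-likelihood test with Benjamini-Hochberg adjustment over 17287 genes, beside 4.01% of all genes tested (3.09% called lower in Mttp-IKO). The lowest values in Mttp-IKO livers relative to control were those of Sod3 (log2 fold change of -0.94), Prdx1 (-0.88) and Prdx2 (-0.59), and Sod2 was the 1 gene with a higher mean in Mttp-IKO (0.05). Sod3, Prdx1, Prdx2 and Prdx6 were lower in each Mttp-IKO pool than in any control pool, while 16.5% of all genes tested were lower without overlap. These same 4 genes had an unadjusted p under 0.05, against 13.5% of all genes in that direction. In all, 9 of the 10 genes had a lower mean in Mttp-IKO, against 49.5% of all genes, and the median log2 fold change was -0.39 for the 10 genes and 0.0057 for all genes. With 3 pools against 3, the exact two-sided permutation test of a single gene cannot go below p = 0.1, the value that these 4 genes reached.

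**Figure D1:**
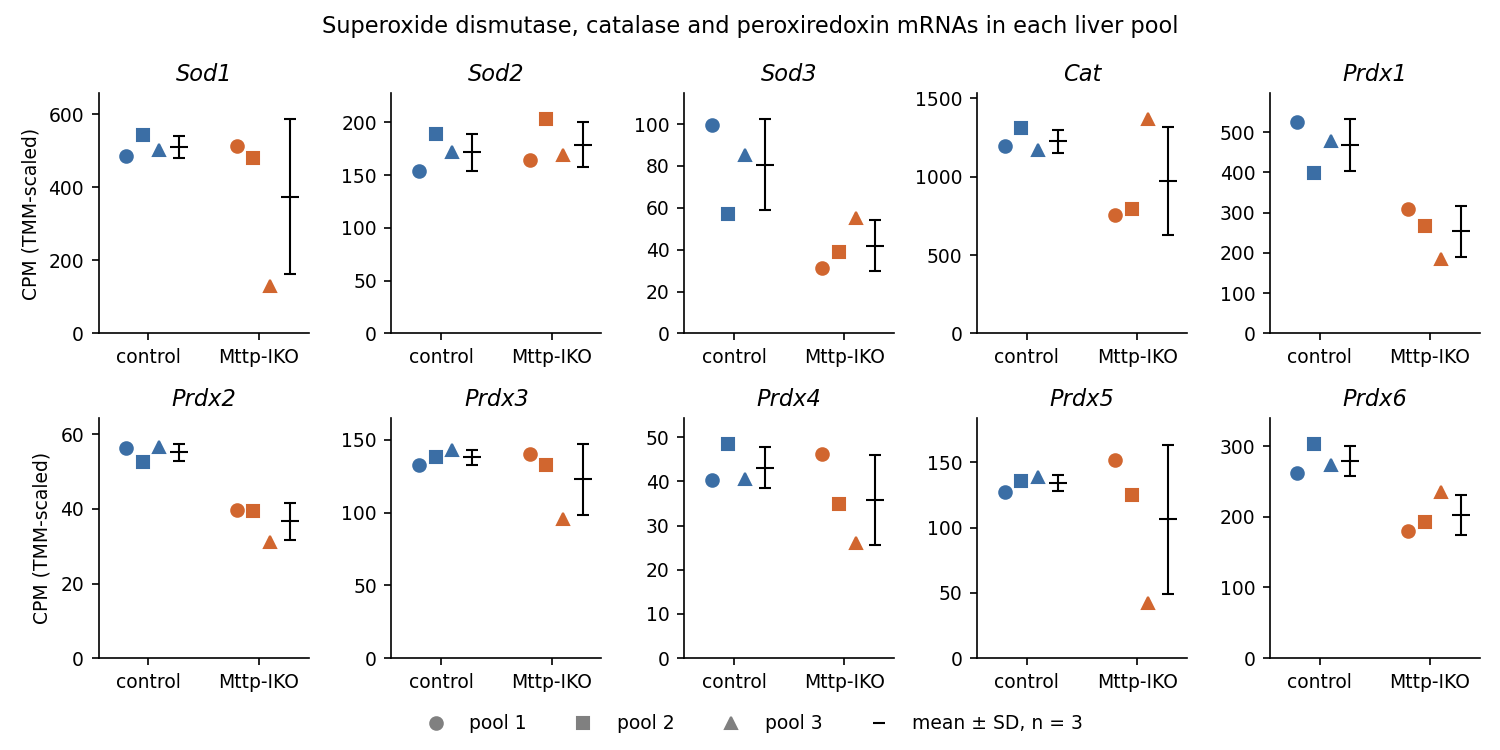
The level of each gene is plotted per pool as TMM-scaled CPM (y axis from 0, a separate scale for each gene), with blue for control and orange for Mttp-IKO pools, symbols for the pool number, and a bar for the mean ± SD of 3 pools. Sod3, Prdx1, Prdx2 and Prdx6 do not overlap between the genotypes, and Mttp-IKO pool 3 (triangle) is far below pools 1 and 2 for Sod1 and Prdx5 and far above them for Cat.

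Without Mttp-IKO pool 3, the same test over 17854 genes called 2 of the 10 genes, both lower in Mttp-IKO: Sod3 and Cat. In that fit 3.15% of all genes were called lower, and 4.84% in either direction. Lower levels without overlap were then found for 5 genes (Sod3, Cat, Prdx1, Prdx2 and Prdx6), against 22.8% of all genes. For the other 5 (Sod1, Sod2, Prdx3, Prdx4 and Prdx5) the log2 fold change without that pool lay between -0.09 and 0.10.

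**Figure D2:**
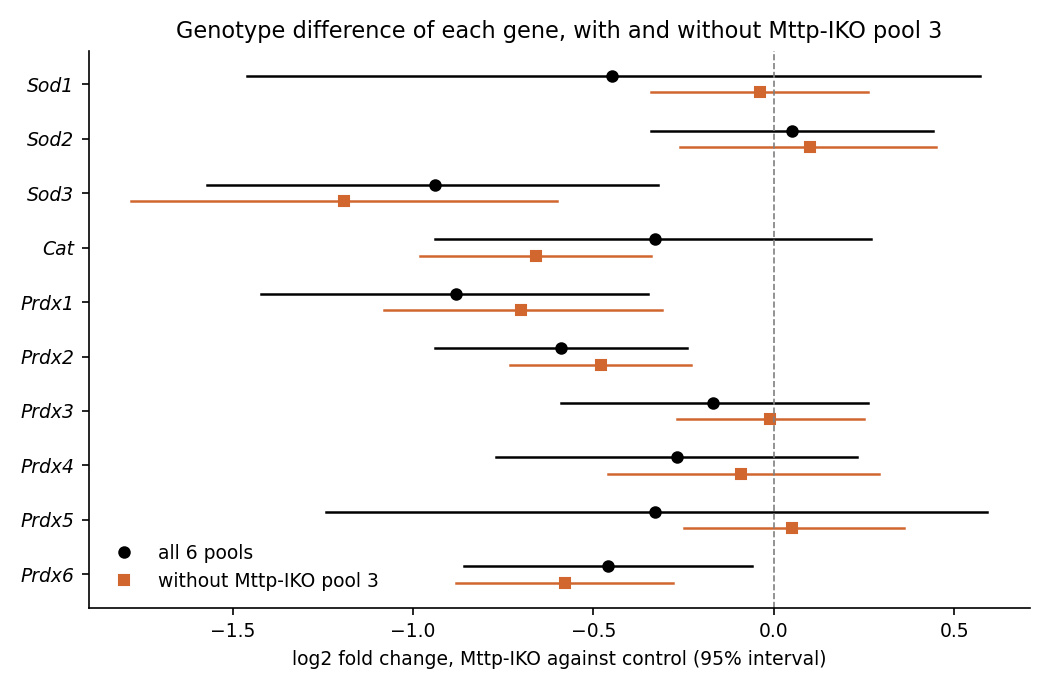
The x axis gives the log2 fold change of Mttp-IKO against control with its 95% interval for each gene (y axis), in black for all 6 pools and in orange without Mttp-IKO pool 3. The intervals of Sod1 and Prdx5 narrow to lie around 0 without that pool, and that of Cat then lies below 0. Those of Sod3, Prdx1, Prdx2 and Prdx6 lie below 0 with and without it.

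Among the superoxide dismutases, Sod3 had the largest difference. The gene lies at chr5:52363946-52371405 on the plus strand of GRCm38, and its enzyme is held by heparan sulfate and collagen in the extracellular matrix. Its level was 99.5, 56.8 and 85.4 CPM in control pools 1, 2 and 3 and 31.4, 39.1 and 55.3 CPM in Mttp-IKO pools 1, 2 and 3. The groups did not overlap, but the lowest control pool and the highest Mttp-IKO pool were close to each other. The means were 80.6 ± 21.7 CPM in control and 41.9 ± 12.2 CPM in Mttp-IKO livers (SD, n = 3), a 1.92-fold lower level. The log2 fold change was -0.94 (SE 0.271, 95% interval -1.57 to -0.32), with an adjusted p of 0.0934 in edgeR's quasi-likelihood test. Without Mttp-IKO pool 3 it was -1.19 with an adjusted p of 0.0473 in the same test, and without control pool 2 it was -1.17 with an adjusted p of 0.0475. Leaving out any of the other 4 pools gave values of -0.93 to -0.77 with adjusted p of 0.161 to 0.278. Control pool 2, the lowest control pool for Sod3, was also the lowest control pool in the stellate cell and fibroblast sum (861 against 1529 and 1283 CPM), the recruited macrophage sum (394 against 967 and 1066 CPM) and the smooth muscle sum (40.1 against 70.3 and 47.5 CPM). That pool was also the lowest control pool in the Kupffer cell, cholangiocyte, erythroid and neutrophil sums. It was the highest control pool in the hepatocyte, endothelial, B cell and striated muscle sums. The part of any of these cell types in the Sod3 difference was not tested.

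Sod1, the most abundant dismutase transcript, stood apart from the controls in 1 Mttp-IKO pool. The gene lies at chr16:90220742-90226322 on the plus strand, and its transcript of 641 nt is the shortest of the 10. Its level was 484, 544 and 501 CPM in the controls and 514, 479 and 130.4 CPM in Mttp-IKO pools. Mttp-IKO pools 1 and 2 lay close to the controls, and pool 3 was far below all others. The means were 509.8 ± 31.2 and 374 ± 212 CPM (SD, n = 3). The log2 fold change of -0.45 (95% interval -1.46 to 0.57, adjusted p = 0.583 by edgeR's quasi-likelihood test) became -0.04 (-0.34 to 0.26) without pool 3. Gm8566 shares 23.1% of the 50-base windows of the Sod1 transcript, and reads that fall wholly in shared stretches could not be placed uniquely, so the Sod1 count is uncertain to that extent. Gm8566 had 1573 reads in all pools together, 1.78% of the 88203 reads of Sod1.

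Sod2 had nearly equal means in both genotypes. The gene lies at chr17:13007839-13018119 on the plus strand. Its level was 154, 189 and 172 CPM in the controls and 164, 203 and 169 CPM in Mttp-IKO pools, and the ranges overlapped, with Mttp-IKO pool 2 above every control. The means were 172 ± 17.5 and 178 ± 21.3 CPM (SD, n = 3), and the log2 fold change was 0.05 (95% interval -0.34 to 0.44, adjusted p = 0.879 by edgeR's quasi-likelihood test). Its sign turned under other settings (-0.13 to 0.16 over the alternatives run), all within that interval. Without Mttp-IKO pool 3 the log2 fold change of Sod2 was 0.1 (-0.26 to 0.45, adjusted p = 0.727 by edgeR's quasi-likelihood test).

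Catalase, which splits hydrogen peroxide into water and oxygen, took the most reads of the 10 genes in every control pool. Cat lies at chr2:103453849-103485160 on the minus strand. Its level was 1196, 1311 and 1172 CPM in the controls and 754, 796 and 1367 CPM in Mttp-IKO pools. Mttp-IKO pools 1 and 2 lay well below every control pool, whereas pool 3 was the highest of all 6 pools. The means were 1226 ± 74.4 and 973 ± 343 CPM (SD, n = 3). The log2 fold change was -0.33 (SE 0.262, 95% interval -0.94 to 0.27, adjusted p = 0.483 by edgeR's quasi-likelihood test) over all pools and -0.66 (SE 0.134, 95% interval -0.98 to -0.34, adjusted p = 0.0447 by the same test) without Mttp-IKO pool 3, a 1.58-fold lower level in the other 2 Mttp-IKO pools. Its transcript shared none of its 50-base windows with another gene.

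The primer pairs of the study include those for Cat and Sod2, whose products are shown to place those assays on the transcripts counted here. Coordinates give the genomic span, introns included. Each product is given in the sense of the transcript, with the primer sites in capitals.
Cat, exons 8 to 9, chr2:103463421-103467137: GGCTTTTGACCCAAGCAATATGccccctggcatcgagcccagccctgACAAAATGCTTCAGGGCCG
Sod2, exon 2, chr17:13008285-13008355: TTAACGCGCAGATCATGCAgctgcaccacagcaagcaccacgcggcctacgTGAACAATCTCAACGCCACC

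The products of 66 and 71 nt are wholly coding sequence in the GENCODE M21 transcripts (GRCm38), and no transcript of another gene held both primer sites of a pair. The counts used here cover all exons of each gene, and the PCR values were not used.

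The peroxiredoxins lay lower in Mttp-IKO pools as a summed level, at 1144, 1077 and 1131 CPM in control pools 1 to 3 and 868, 792 and 615 CPM in Mttp-IKO pools 1 to 3, without overlap. This sum was 1117 ± 35.7 CPM in control and 758 ± 130.1 CPM in Mttp-IKO livers (SD, n = 3). The largest differences of means within it were those of Prdx1 (468 against 254 CPM) and Prdx6 (279 against 203 CPM). The cytosolic members Prdx1, Prdx2 and Prdx6 did not overlap between the genotypes, and the mitochondrial, secretory and multi-compartment members did. Lower levels without overlap were found for 16.5% of all genes tested, and the cytosolic Sod1 overlapped. Prdx1, Prdx2 and Prdx6 also had longer transcripts (1612 to 2387 nt) than Prdx3, Prdx4 and Prdx5 (990 to 1478 nt). The part of compartment or length in this split was not tested.

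Prdx1, the main cytosolic typical 2-Cys peroxiredoxin of liver, lies at chr4:116685544-116700822 on the plus strand, directly after the promoter stretch shown above. Its level was 526, 399 and 479 CPM in the controls and 309.9, 266 and 185 CPM in Mttp-IKO pools. Every Mttp-IKO pool was below every control pool, and control pool 2 was the lowest of the controls, as for Sod3. The means were 468 ± 64.4 and 254 ± 63.6 CPM (SD, n = 3), a 1.85-fold lower level with a log2 fold change of -0.88 (SE 0.232, 95% interval -1.42 to -0.35) and an adjusted p of 0.0749 by edgeR's quasi-likelihood test. Without Mttp-IKO pool 3 the log2 fold change was -0.70 with an adjusted p of 0.0597 in the same test. Gm21399, Gm7204 and Gm15974 together shared 10.9% of the 50-base windows of Prdx1 and had 1.42, 0.474 and 0.0192% of its reads.

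Prdx2, also a cytosolic typical 2-Cys peroxiredoxin and best known from red cells, had the smallest p of the 10 genes. It lies at chr8:84969587-84974834 on the plus strand. Its level was 56.3, 52.5 and 56.5 CPM in the controls and 39.6, 39.3 and 31.0 CPM in Mttp-IKO pools. The control pools were tightly grouped and every Mttp-IKO pool was below them. The means were 55.1 ± 2.28 and 36.6 ± 4.87 CPM (SD, n = 3), with a log2 fold change of -0.59 (SE 0.152, 95% interval -0.94 to -0.24), a p of 0.00463 and an adjusted p of 0.0723 by edgeR's quasi-likelihood test. Without Mttp-IKO pool 3 it was -0.48 with an adjusted p of 0.0503 in the same test. Junb and Rnaseh2a overlap the exons of Prdx2 on the opposite strand (5.7 and 5.8% of its exon bases). They had 12782 and 2225 reads over the 6 pools against 9084 of Prdx2, which is 141 and 24.5% of its reads, and with the copies Tdpx-ps1 (1.22%) and Prdx2-rs3 (0 reads) they hold 23.8% of the 50-base windows of Prdx2. Whether the counting used strand was not given in the sources used here, so the Prdx2 count is uncertain in these stretches. The erythroid sum overlapped between the genotypes, as given above. The 5 genes with the most similar profile over the 6 pools, of 9100 genes with a mean log2 CPM of at least 3, were Fam20c, Snrpa1, Pgap2, Sept9 and Pgam1, with a root mean square difference of log2 CPM, centred on each gene's mean, of 0.042, 0.0662, 0.0681, 0.0722 and 0.0726.

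Prdx6, the 1-Cys peroxiredoxin that also reduces phospholipid peroxides, lies at chr1:161240112-161251219 on the minus strand. Its level was 262, 303 and 273 CPM in the controls and 179.8, 193 and 235 CPM in Mttp-IKO pools. The groups did not overlap, and unlike Prdx1 and Prdx2 it was highest of the Mttp-IKO pools in pool 3. The means were 279 ± 21.1 and 203 ± 28.9 CPM (SD, n = 3), with a log2 fold change of -0.46 (SE 0.174, 95% interval -0.86 to -0.06, adjusted p = 0.167 by edgeR's quasi-likelihood test). Without pool 3 it was -0.58 with an adjusted p of 0.0510 in the same test.

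The other 3 peroxiredoxins had overlapping groups. Prdx3, the mitochondrial peroxiredoxin (chr19:60864051-60874556, minus strand), had 133, 138 and 143 CPM in the controls and 140.5, 133 and 95.3 CPM in Mttp-IKO pools. Its log2 fold change was -0.17 (95% interval -0.59 to 0.26), and -0.01 (-0.27 to 0.25) without pool 3. Mttp-IKO pool 3 was the 1 pool below the control range.

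Prdx4, the peroxiredoxin of the endoplasmic reticulum that accepts peroxide made during disulfide formation (chrX:155323918-155340754, minus strand), had 40.4, 48.5 and 40.6 CPM in the controls and 46.3, 34.9 and 26.0 CPM in Mttp-IKO pools. Its log2 fold change was -0.27 (95% interval -0.77 to 0.23), and -0.09 (-0.46 to 0.29) without pool 3. The Mttp-IKO pools spread from the control range downwards.

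Prdx5, an atypical 2-Cys enzyme of mitochondria, peroxisomes and cytosol (chr19:6906697-6910106, minus strand), had 127, 136 and 139 CPM in the controls and 152, 125 and 42.4 CPM in Mttp-IKO pools. Its log2 fold change was -0.33 (95% interval -1.24 to 0.59), and it turned to 0.05 (-0.25 to 0.36) without pool 3. The adjusted p over all pools was 0.629 for Prdx3, 0.494 for Prdx4 and 0.660 for Prdx5 in edgeR's quasi-likelihood test. Trmt112 overlaps 19.1% of the exon bases of Prdx5 on the opposite strand and had 881, 851 and 664 reads in control pools and 840, 707 and 192 reads in Mttp-IKO pools, so its count was also lowest in pool 3.

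The members that parted from pools 1 and 2 in Mttp-IKO pool 3 were set beside transcript length. Relative to the mean of pools 1 and 2 on the log2 scale, pool 3 was at -1.92 for Sod1, -1.69 for Prdx5, -0.64 for Prdx1, -0.62 for Prdx4, -0.52 for Prdx3, -0.34 for Prdx2 and -0.11 for Sod2, and at 0.33 for Prdx6, 0.65 for Sod3 and 0.82 for Cat. The median of all protein-coding genes was -1.04 below 700 nt, -0.85 from 700 to 1000 nt, -0.49 from 1000 to 1500 nt, -0.24 from 1500 to 2000 nt, -0.06 from 2000 to 3000 nt, 0.11 from 3000 to 5000 nt and 0.28 above 5000 nt. Prdx2, Prdx3 and Prdx4 lay within the middle 50% of genes of their length bin. Below it lay Sod1 (bin from -1.70 to -0.34), Prdx5 (-0.82 to -0.12), Prdx1 (-0.35 to 0.27) and Sod2 (0.00 to 0.53). The Sod2 transcript used for its bin has 5861 nt, whereas its counted exons have 3824 nt. In the bin from 3000 to 5000 nt (-0.17 to 0.39) the value of Sod2 would lie inside. Transcript and counted exon lengths also differed for other members, and the bins use transcript length. Above it lay Cat and Prdx6 (-0.35 to 0.27) and Sod3 (-0.17 to 0.39). The part of transcript length in these values was not tested. Fits with a trend in exon length removed called none of the 10 genes, but neither did the reported fit, so that count cannot show it. With that trend removed, the log2 fold change between genotypes went from -0.45 to -0.36 for Sod1 and from -0.33 to -0.28 for Prdx5. With a trend in transcript length and GC content removed, chosen after seeing the data, it was -0.32 for Sod1 and -0.20 for Prdx5.

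**Figure D3:**
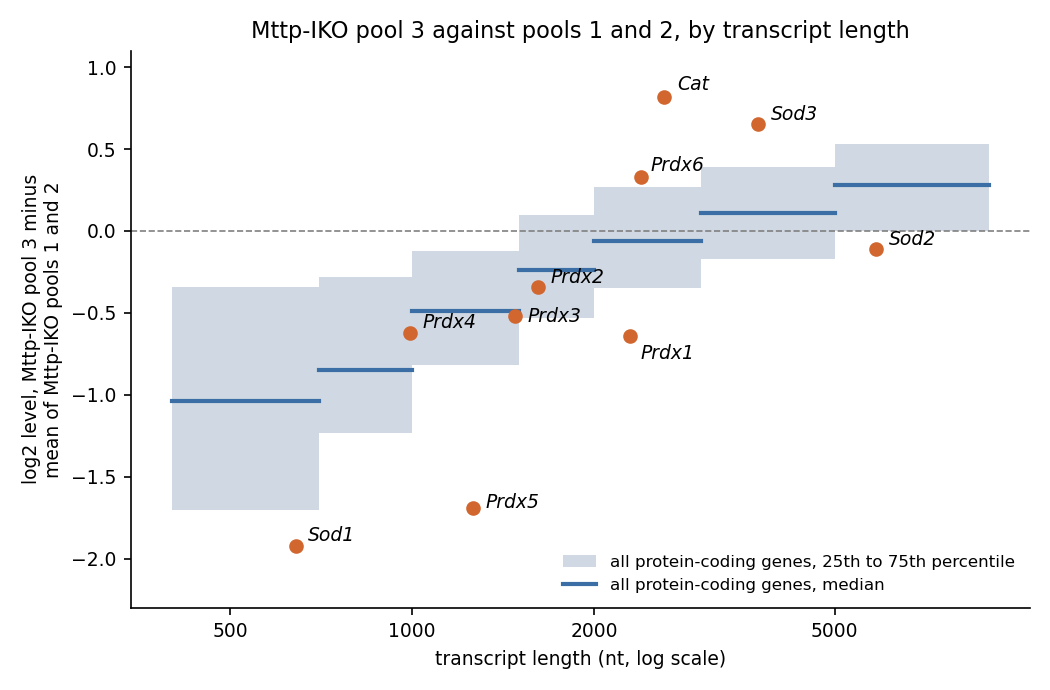
The y axis gives the log2 level in Mttp-IKO pool 3 minus the mean of Mttp-IKO pools 1 and 2, and the x axis the transcript length in nt on a log scale, with the outermost bins drawn to the plot's edge. Blue lines and shaded boxes give the median and the 25th to 75th percentile of all protein-coding genes per length bin, and orange points the 10 genes, of which Sod1 and Prdx5 lie lowest and Cat highest.

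Among pairs of members, the most alike were Sod1 and Prdx5, whose centred profiles over the 6 pools differed by a root mean square of 0.128 log2 units, then for Prdx3 and Prdx4 (0.149), Cat and Prdx6 (0.169) and Prdx1 and Prdx2 (0.211). Sod3 was closest to Prdx6, at 0.404. All pairs share the same 6 pools, including the deviation of Mttp-IKO pool 3. The summed level of the 10 genes was 3078, 3178 and 3062 CPM in the controls and 2331, 2309 and 2336 CPM in Mttp-IKO pools. The nearly equal totals of the Mttp-IKO pools hold unlike parts: in pool 3 Cat was higher, and Sod1, Prdx1 and Prdx5 were lower, than in pools 1 and 2.

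Levels between genes were compared as CPM per kb of the exon length in the deposited files. In control livers the order was Sod1 (789 ± 48.3 CPM per kb), Cat (469 ± 28.5), Prdx1 (154 ± 21.2), Prdx3 (93.3 ± 3.63), Prdx6 (76.1 ± 5.76), Prdx5 (62.6 ± 3.03), Sod2 (44.9 ± 4.58), Sod3 (22.6 ± 6.09), Prdx4 (20.5 ± 2.21) and Prdx2 (18.1 ± 0.747; SD, n = 3). Of neighbours in this order, only Sod3 and Prdx4 overlapped between pools. In Mttp-IKO livers the first 7 places were the same, and the last 3 were Prdx4 (17.0 ± 4.82), Prdx2 (12.0 ± 1.60) and Sod3 (11.7 ± 3.41 CPM per kb), with overlap between Sod1 and Cat, Prdx1 and Prdx3, Prdx6 and Prdx5, Prdx5 and Sod2, Prdx4 and Prdx2, and Prdx2 and Sod3. The order depends on the length used: per kb of the main GENCODE transcript, only Sod1, Cat and Prdx1 kept their place in control livers.

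**Figure D4:**
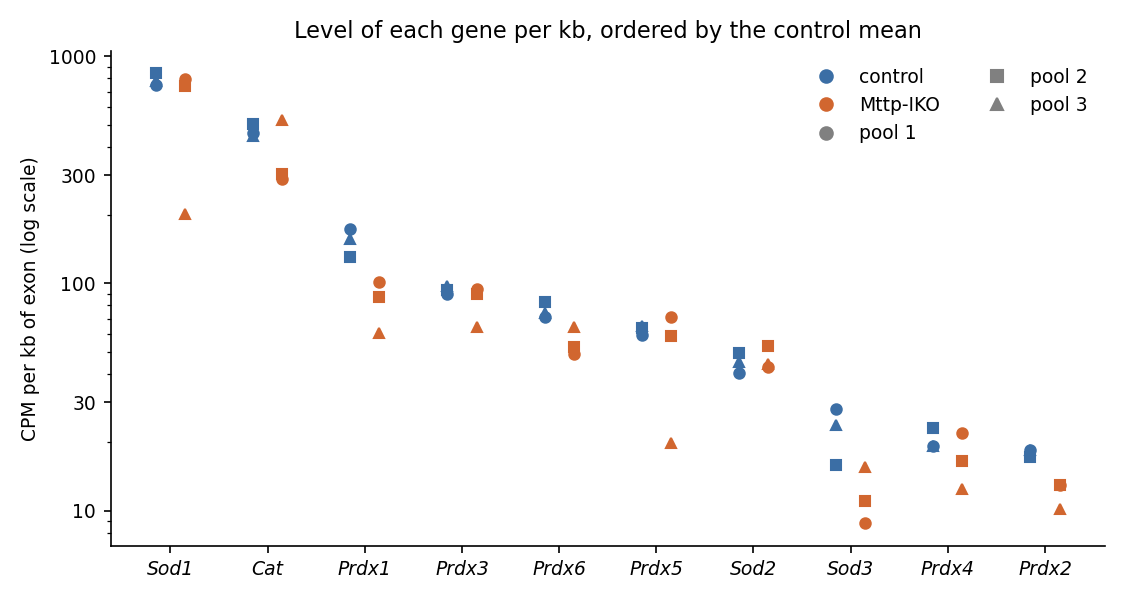
The y axis (log scale) gives CPM per kb of exon for each of the 10 genes on the x axis, ordered by the control mean, with blue for control pools, orange for Mttp-IKO pools and a symbol for the pool number. Sod1 and Cat stand above all others in control pools, and Mttp-IKO pool 3 lies far below the other pools for Sod1 and Prdx5.

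The genes that supply or recycle these enzymes were read from the same fit. In the thioredoxin system none of 11 genes passed, 6 were lower and 5 higher on average, and the median log2 fold change was -0.01. The smallest p was that of Txn1, the cytosolic thioredoxin that reduces peroxiredoxins, with 143, 125 and 138 CPM in the controls and 107, 71.4 and 40.1 CPM in Mttp-IKO pools. Its groups did not overlap, with a log2 fold change of -0.89 (SE 0.317) and an adjusted p of 0.149 by edgeR's quasi-likelihood test. These were -0.60 and 0.105 in the same test without Mttp-IKO pool 3.

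Of 11 genes that supply or buffer the copper, zinc and manganese used by superoxide dismutases, none passed, and the median log2 fold change was 0.06. Slc30a10, a manganese exporter, had the smallest p, with 2.78, 10.3 and 4.81 CPM in the controls and 24.8, 23.1 and 12.0 CPM in Mttp-IKO pools, a log2 fold change of 1.75 (SE 0.477) and an adjusted p of 0.0826 by edgeR's quasi-likelihood test. It was higher in every Mttp-IKO pool than in any control pool. With Mttp-IKO pool 3 left out, the log2 fold change was 2.01 (adjusted p = 0.0597 in edgeR's test), and without control pool 2 it was 2.39 and passed (adjusted p = 0.0263).

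NADPH oxidase subunits, of phagocytes and of other cells, were the list with calls. Of its 13 genes, 10 were tested. The test called 2 lower and none higher, beside 3.09% of all genes called lower. On average 7 were lower and 3 higher, and the median log2 fold change was -0.98. Those higher on average were Noxa1 (1.03, without overlap, mean of 0.839 CPM in control and 1.71 CPM in Mttp-IKO livers), Noxo1 (0.47) and Nox4 (0.34). Cybb, the catalytic subunit of the phagocyte oxidase, had 94.0, 44.2 and 85.6 CPM in the controls and 33.5, 28.5 and 32.5 CPM in Mttp-IKO pools. It fell by 1.24 on the log2 scale (SE 0.273, adjusted p = 0.0482 by edgeR's quasi-likelihood test), with no overlap of the groups. Cyba, its membrane partner, had 51.9, 23.2 and 41.3 CPM in the controls and 15.1, 13.9 and 8.01 CPM in Mttp-IKO pools. It fell by 1.65 on the log2 scale (SE 0.338, adjusted p = 0.0413 by the same test). Control pool 2 was the lowest control pool for both, as in the recruited macrophage sum and several other sums named with Sod3. Of the recruited macrophage markers 5 of 6 were called lower, and the part of these cells in the fall of Cybb and Cyba was not tested. Both calls were kept without control pool 2 (adjusted p of 0.00953 for Cybb and 0.0179 for Cyba in the same test), and were lost when any 1 of the other 5 pools was left out, with adjusted p of 0.0692 to 0.173 for Cybb and 0.0562 to 0.153 for Cyba. The log2 fold change without Mttp-IKO pool 3 was -1.27 for Cybb and -1.42 for Cyba.

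Oxidases of peroxisomes and cytosol, which generate hydrogen peroxide or superoxide, had 11 of 13 genes tested and none passing, with a median log2 fold change of -0.05. Pipox, the peroxisomal sarcosine and pipecolate oxidase, had the smallest p, with 28.6, 41.8 and 35.5 CPM in the controls and 38.9, 66.2 and 85.1 CPM in Mttp-IKO pools, a log2 fold change of 0.84 (SE 0.285) and an adjusted p of 0.133 by edgeR's quasi-likelihood test. Leaving out Mttp-IKO pool 3 gave 0.58 and 0.198 in the same test. In this list Uox, urate oxidase, chosen after its values were seen, was high in Mttp-IKO pool 3, as was Cat. It had 354 and 399 CPM in Mttp-IKO pools 1 and 2 and 759 CPM in pool 3. Control pools lay at 498 to 696 CPM, so that, as for Cat, Mttp-IKO pools 1 and 2 were below and pool 3 above every control pool.

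Peroxisome import and assembly genes, which deliver catalase into peroxisomes, had none of 12 passing, 10 higher on average and a median log2 fold change of 0.26. Pex14, a docking subunit of the import channel, had the smallest p, with 38.2, 44.9 and 42.0 CPM in the controls and 50.8, 54.8 and 73.2 CPM in Mttp-IKO pools, a log2 fold change of 0.52 (SE 0.178) and an adjusted p of 0.140 by edgeR's quasi-likelihood test. Its 3 Mttp-IKO pools were all above the controls. Without pool 3 the log2 fold change was 0.34 (adjusted p = 0.125 in edgeR's test).

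Of the 7 genes of disulfide formation, which Prdx4 serves in the endoplasmic reticulum, none passed, with a median log2 fold change of -0.14. All but 1 overlapped between the groups. Qsox1, a sulfhydryl oxidase, had the smallest p, with 315, 288 and 277 CPM in the controls and 432, 472 and 482 CPM in Mttp-IKO pools, without overlap, and an adjusted p of 0.0652 by edgeR's quasi-likelihood test for a log2 fold change of 0.66 (SE 0.162). When Mttp-IKO pool 3 was left out it passed, higher in Mttp-IKO, at 0.63 (adjusted p = 0.0433 in the same test), and with a length trend removed at 0.64 (adjusted p = 0.0472). Of 10 genes of mitochondrial content and control, none passed, with a median of -0.08. Ppargc1a, a coactivator of mitochondrial gene expression, had the smallest p, with 29.0, 40.6 and 38.1 CPM in the controls and 45.5, 98.5 and 95.7 CPM in Mttp-IKO pools, a log2 fold change of 1.15 (SE 0.298) and an adjusted p of 0.0724 by edgeR's quasi-likelihood test. Without Mttp-IKO pool 3 it was 1.01 (adjusted p = 0.105 in the same test), and without Mttp-IKO pool 1 it was 1.44 and passed (adjusted p = 0.0476).

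**Figure D5:**
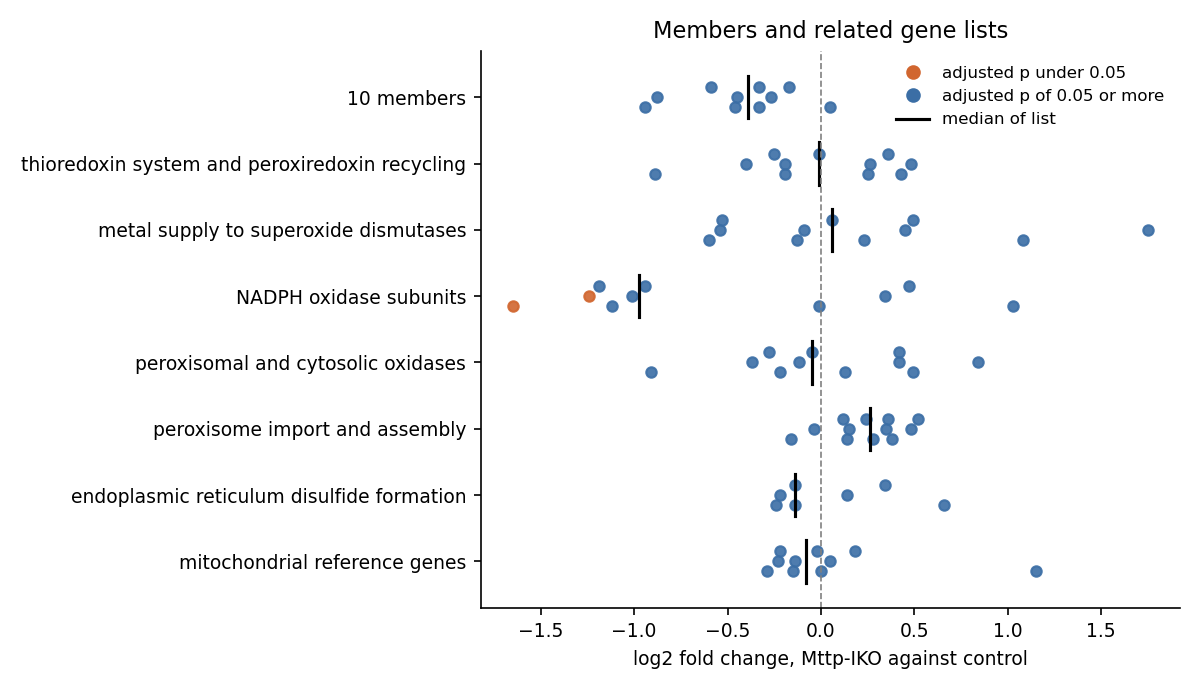
Each point is 1 gene, placed by its log2 fold change of Mttp-IKO against control (x axis) in the row of its list (y axis), in orange where the adjusted p was under 0.05 and in blue otherwise, with a black line at the median of each list. The 2 orange points are Cyba and Cybb among the NADPH oxidase subunits, and the 10 genes of the top row lie between -0.94 and 0.05.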

How the data were processed

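Liver RNA was depleted of ribosomal RNA (KAPA RiboErase) and sequenced in 3 control and 3 Mttp-IKO pools. The authors aligned reads to GRCm38 (Ensembl annotation) with STAR 2.5.1a and used featureCounts 1.4.6-p5 to assign to genes the reads that aligned uniquely and to a single gene. The deposited per-pool tables hold raw counts of 41388 genes, which were analysed, and the authors' CPM and RPKM, which were not tested. CPM recomputed from the counts matched the deposited CPM. The series-wide table of 40481 genes held identical counts and supplied symbols (26 symbols turned into dates were taken from the reference).

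Genes were filtered with filterByExpr (minimum count 10), scaled with TMM and tested with edgeR 4.0.16 (quasi-likelihood, genotype only, Benjamini-Hochberg over all 17287 genes tested, threshold 0.05). SE was the log2 fold change divided by the square root of F. R 4.3.3, limma 3.58.1, DESeq2 1.42.0, Python 3.11.15 and matplotlib 3.10.9 were used, and the script was tested on simulated data. Transcript lengths and overlaps came from GENCODE M21 and promoters from RefSeq. Pools were the replicates, and no pair of pools agreed within counting noise (chi-square per degree of freedom of 37.1 to 284). Alternatives were other scalings, filters and tools, length trends, a replicate block and leaving out pools. All 10 members are named. Of each related list, genes that passed or else the 1 with the smallest p are given with a test. The members and lists were chosen with earlier results of these data known.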

Additional observations from a re-analysis of the deposited data

How the results depend on the processing

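None of the 10 genes passed in the reported fit. Of them 2 passed with total counts only (Prdx1 and Prdx2), 3 with the DESeq2 Wald test (Prdx1, Prdx2 and Sod3), and 5 with control pool 2 and Mttp-IKO pool 3 both left out (Sod3, Cat, Prdx1, Prdx2 and Prdx6), an alternative chosen after seeing the data. Leaving out 1 pool at a time gave 0 to 2: 1 without control pool 2 (Sod3) and 2 without Mttp-IKO pool 3 (Sod3 and Cat). Total counts moved the median log2 fold change of all genes by -0.18, and each other scaling by 0.06 or less.

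The count of all genes called, 694 (159 higher, 535 lower), was 1995 with the DESeq2 Wald test, 428 with limma-voom, 2146 with both pools left out and 0 to 892 over the pools left out in turn. Those fits gave 24 without control pool 1, 892 without control pool 2, 21 without control pool 3, 55 without Mttp-IKO pool 1, 0 without Mttp-IKO pool 2 (edgeR, with 3221 at an unadjusted p under 0.05) and 864 without Mttp-IKO pool 3. The calls were 112 higher and 907 lower with total counts, 657 and 1338 with the DESeq2 Wald test, and 302 and 562 without Mttp-IKO pool 3. Of the related lists, 2 genes passed in the reported fit, 1 with DESeq2 size factors, 4 with total counts only, 6 with no filter on low counts, 10 with the DESeq2 Wald test, 0 with limma-voom (20 at an unadjusted p under 0.05), 5 with the replicate block and length trend removed together, 12 with both pools left out and 0 to 7 over the pools left out in turn. The cause of these shifts was not tested.

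Sod2 had the other sign with total counts only (-0.13), without control pool 1 (-0.04), without Mttp-IKO pool 2 (-0.05) and with a trend in transcript length and GC content removed (-0.05, chosen after seeing the data). With 1 pool left out, Sod2 ranged from -0.05 to 0.11 and Prdx5 from -0.67 to 0.05. Prdx5 had the other sign without Mttp-IKO pool 3 (0.05) and with both pools left out (0.06), and Sod1 was at 0 (log2) with both left out. The other 7 genes had a log2 fold change of 0 or below in all 18 alternatives. Per kb of transcript, 3 of 10 genes kept their place in the control order.

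The replicate numbers are shared between the groups. The correlation of pools' deviations was 0.139, 0.112 and 0.007 for same-numbered pools and -0.125 to 0.021 for the others. With 3 pools per group, these values cannot show whether the numbers mark pairs. For Mttp-IKO pool 3 they were -0.03, 0.021 and 0.007 with control pools 1, 2 and 3. With the replicate block, 592 genes, 0 of the 10 and 3 of the related lists were called, Ppargc1a being gained (adjusted p = 0.0413 in edgeR's test, and 0.0286 with the length trend also removed). Over all 6 pools the log2 intervals of Sod1 (-1.46 to 0.57) and Prdx5 (-1.24 to 0.59) are wide, and without Mttp-IKO pool 3 they narrow to -0.34 to 0.26 and -0.25 to 0.36.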
